A study of Mus musculus with 4 samples.

Results

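The genes described here encode the integrins, the cell-surface receptors that anchor cells to the matrix around them, and the laminins, the main adhesive proteins of basement membranes. They were taken from the arrays by name: probes for genes called Itga or Itgb with a subunit name, and probes for Lama, Lamb or Lamc with a number. This gave 84 probes (102 spots) for 39 gene names, out of 41174 probes and 27672 names on the array. Of the 39, 26 are integrin subunits, 11 are laminin chains and 1, Itgbl1, is an integrin-like protein that is not a receptor subunit. The last, listed as Itgb4bp, is now named Eif6, a translation initiation factor; its log2 ratio was -0.01, and it is left out of every count below.

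A laminin is a trimer of 1 alpha, 1 beta and 1 gamma chain, and it polymerises into a sheet that nidogen, perlecan and collagen IV stabilise. An integrin is a pair of 1 alpha and 1 beta subunit, and the pair decides which ligand is bound: laminins, collagens, ligands with an RGD motif such as fibronectin, or counter-receptors on other cells. In the embryonic heart, basement membranes underlie the endocardium and surround the myocardium. Endocardial cells lose contact with theirs when they enter the cushions of the atrioventricular canal.

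The tissue was the canal, the segment between the atria and ventricles, dissected from mouse hearts at stage e10.5. The embryos were wild-type controls or Tbx3 mutants, described in the series title as hypomorphic, meaning reduced function, on a background of 50% Sv129 and 50% C57Bl6. Tbx3 encodes a T-box transcription factor of the canal, and the comparison asks which transcripts differ when its dose is reduced. Each pool held tissue of 5 hearts, and 4 control pools (Cy3, green) were each hybridised with 1 mutant pool (Cy5, red) on 4 two-colour arrays. The dyes were never swapped, so a dye effect particular to a probe and the genotype cannot be told apart. The labels give neither the structure of the allele nor the copies carried.

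Values are log2 ratios of mutant over control within an array, given for arrays 1 to 4 in that order unless a range is named, and n = 4 throughout. Tbx3 itself read -1.35, -1.40, -1.43 and -1.21 (mean -1.35 ± 0.10 SD; limma adjusted p = 0.0454) and was the only 1 of 19093 genes past an adjusted p of 0.05; with array 1, 3 or 4 left out its adjusted p was 0.346, 0.602 and 0.510. All 8 markers listed for the canal, Tbx3 among them, were above background in every pool. So were all 8 of the leukocyte, platelet lineage and erythroid lists, so this does not single out the canal. The median ratio of the canal list was -0.41. The ratios of array 2 stood apart: they correlated with those of the other arrays at r between -0.06 and 0.07 across 19091 genes, against 0.25 to 0.66 among arrays 1, 3 and 4, and their SD was 0.49 against 0.26 to 0.29. Values without array 2 are given beside the results that it moves most.

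A log2 ratio on such an array is a property of one 60-base probe, so some probes of a gene that agreed or differed are printed here, 5′ to 3′, with positions on mouse build mm7 as the files give them. The pair for Lama2, whose readings agreed, lies at chr10:26736609-26736668 and, with ends 2011 bases apart, at chr10:26743094-26745104.
Lama2, first probe: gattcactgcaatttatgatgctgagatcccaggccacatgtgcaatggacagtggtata
Lama2, second probe: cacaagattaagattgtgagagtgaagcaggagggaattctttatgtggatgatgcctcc
The Lama4 pair, at chr10:38885787-38885846 and chr10:38885025-38885815, shares the 29 bases in capitals, so its readings are not independent.
Lama4, first probe: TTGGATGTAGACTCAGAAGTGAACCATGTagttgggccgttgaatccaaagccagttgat
Lama4, second probe: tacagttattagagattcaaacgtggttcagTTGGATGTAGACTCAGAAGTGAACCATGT
The Itgb1 pair, whose readings differed on arrays 3 and 4, lies at chr8:127331051-127331110 and, with ends 5019 bases apart, at chr8:127335633-127340651. The file assigns the second to a partial record of the beta1D form, the splice form known from striated muscle. Another Itgb1 probe, not printed, is assigned to the same record as the first, and its mean lay furthest from that of the beta1D probe (-0.26 against 0.21).
Itgb1, general record: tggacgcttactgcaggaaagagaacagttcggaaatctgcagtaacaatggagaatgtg
Itgb1, beta1D record: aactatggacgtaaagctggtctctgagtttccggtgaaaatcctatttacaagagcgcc

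No integrin or laminin gene passed the threshold. Of the 38 genes, 34 were bright enough to test, and 32 of the 34 were well above background in all 8 pools. The lowest adjusted p was 0.138, against a share of all genes called of 0.00524%. At an unadjusted p under 0.05, 7 genes had lower ratios and 0 had higher ratios, where 7.45% of all genes were lower and 7.10% higher. These 7 were Itgb8, Lama2, Itgb1, Itga10, Itgb5, Lamc1 and Lama4. Ratios were lower on all 4 arrays for 6 of the 34 (12.6% of all genes) and higher on all 4 for 1, Lamc3 (12.3% of all genes). No mean reached 1 in size: they lay between -0.69 and 0.31.

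As a group the means lay a little below the rest of the array, and much of that came from array 2. The mean was negative in 26 of 34 genes, against 49.7% of all genes, with a median of -0.13 against 0.00119 over all genes. By array the medians were -0.02, -0.36, -0.03 and -0.16. Without array 2 the median was -0.03 and 20 of 34 were negative; none passed (lowest adjusted p = 0.0551), and 7 lower and 3 higher genes had an unadjusted p under 0.05 (11.2% and 12.0% of all genes). Centring each array on its median in place of loess left a positive ratio in bright probes. It moved the median of all tested genes to 0.23 and that of these genes to 0.08, with 11 of 34 negative. Relative to all genes their median was then -0.15, and 27 of 34 lay below the median of all genes. Such relative values still hold the trend with brightness, as the same number was subtracted from every gene.

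**Figure D1:**
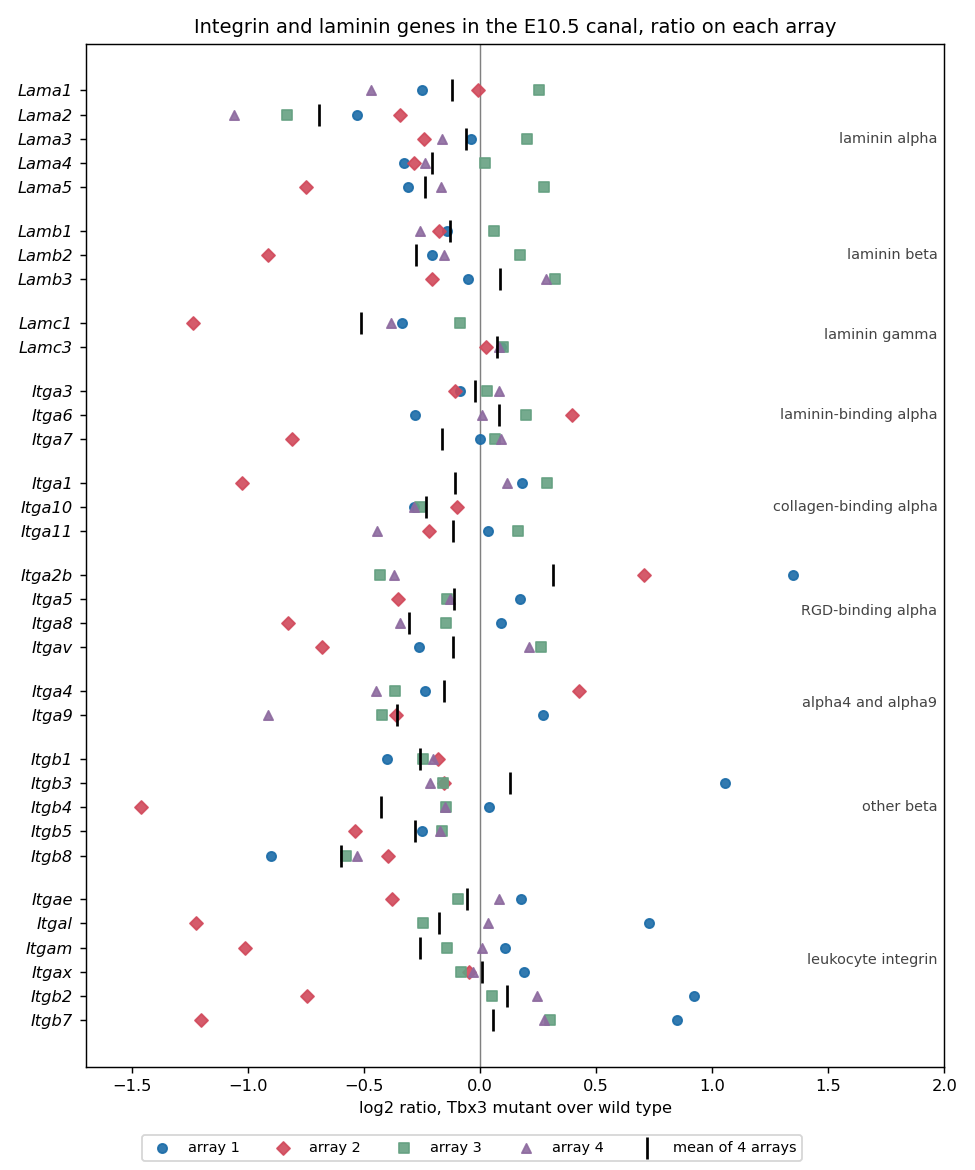
Log2 ratio of mutant over wild type (x axis) for 33 of the tested integrin and laminin genes, grouped by chain or ligand class, with 1 symbol per array and a black bar at the mean of 4 arrays. Array 2 lies far to the left of the other 3 for several genes (Itgb4 at -1.46, Lamc1 at -1.24), and the symbols of Lama2 and Itgb8 all lie left of 0 with this loess scaling.

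Among the laminin alpha chains, Lama2 had the lowest mean. It encodes the alpha2 chain of the laminin of muscle basement membranes. In the control pools its normalized log2 level was 9.83, 9.87, 9.57 and 9.64, and in the mutant pools 9.29, 9.52, 8.73 and 8.58. Every mutant pool lay below every control pool, with mutant pools 3 and 4 the lowest. The ratios were -0.53, -0.35, -0.83 and -1.06, with a mean of -0.69 ± 0.32 SD, a 95% interval of -1.02 to -0.37 and an adjusted p of 0.144. That mean is a mutant level of 0.619 times the control level. Without array 2 it was -0.81 (adjusted p = 0.0551). The second probe printed above read -0.56, -0.26, -0.95 and -0.98, and the first, present in 10 spots per array, varied between those spots by an SD of 0.031 to 0.061. The arrays fell in the same order for both probes. In bulk tissue, fewer cells that express a gene and less of its RNA per cell cannot be told apart.

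Lama4 encodes the alpha4 chain of laminins of blood vessels and muscle. Its ratios were -0.33, -0.29, 0.02 and -0.24, with a mean of -0.21 ± 0.16 SD (unadjusted p = 0.0444, adjusted p = 0.329). Array 3 was the exception, and control pools (12.45 to 12.93) and mutant pools (12.21 to 12.65) overlapped. The overlapping probe read -0.15 on average and another probe, at chr10:38874796-38874855, -0.26. With median centring the mean of Lama4 was 0.19, which was -0.04 relative to all genes.

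Lama5 encodes the alpha5 chain of a laminin found in most epithelial and endothelial basement membranes. It read -0.31, -0.75, 0.27 and -0.17 (mean -0.24 ± 0.42 SD; adjusted p = 0.565), so its arrays differed in sign, and without array 2 its mean was -0.07. Lama1, the alpha chain of the earliest embryonic laminin, read between -0.47 and 0.25. Lama3, a chain of the epithelial laminin that anchors hemidesmosomes, read between -0.24 and 0.20. Neither mean (-0.12 and -0.06) exceeded its spread.

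The beta1 and gamma1 chains, encoded by Lamb1 and Lamc1, occur in most laminin trimers. Lamb1 read -0.14, -0.18, 0.06 and -0.26 (mean -0.13 ± 0.14 SD; adjusted p = 0.487). Lamc1 read -0.34, -1.24, -0.09 and -0.39 (mean -0.51 ± 0.50 SD; unadjusted p = 0.0420, adjusted p = 0.326). Lamc1 was below 0 on every array and its pools did not overlap, but control pool 2 was far above the rest. Its level was 14.87, 15.64, 14.67 and 14.67 in control pools and 14.54, 14.40, 14.59 and 14.28 in mutant pools. Without array 2 the Lamc1 mean was -0.27. With median centring both genes had positive means, 0.37 for Lamb1 (adjusted p = 0.0126) and 0.07 for Lamc1, or 0.15 and -0.15 relative to all genes.

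Lamb2, whose chain replaces beta1 at the neuromuscular junction and in the kidney filter, read -0.21, -0.92, 0.17 and -0.15. Array 2 was its lowest reading, and without it the mean was -0.06. Lamb3, the beta chain of an epithelial laminin, lay between -0.21 and 0.32. Lamc3 was higher on all 4 arrays, at 0.09, 0.03, 0.10 and 0.08 (mean 0.07 ± 0.03 SD; adjusted p = 0.608), but its probe was above background in only 1 of 4 control and 3 of 4 mutant pools.

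Of the beta subunits outside leukocytes, Itgb8 had the lowest mean. Its product pairs with alphav and is known for activating latent TGF-beta. Its level was 9.34, 9.13, 9.29 and 9.28 in control pools and 8.44, 8.73, 8.71 and 8.75 in mutant pools, with no overlap. The ratios were -0.90, -0.40, -0.58 and -0.53, with a mean of -0.60 ± 0.21 SD, a 95% interval of -0.84 to -0.36 and an adjusted p of 0.138, the lowest among these genes. Without array 2 the mean was -0.67 (adjusted p = 0.0553). The probe lies at chr12:116944827-116944886. A pair of dimmer probes gave smaller means: -0.19 ± 0.23 SD at chr12:116974578-116974637, with array 3 at 0.13, and -0.20 ± 0.22 SD at chr12:116948889-116948948. The remaining probe did not pass the brightness filter.

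Itgb1 encodes the beta1 subunit shared by most laminin, collagen and fibronectin receptors. The probe at chr8:127341194-127341253, spotted 10 times per array, read -0.40, -0.18, -0.25 and -0.20 (mean -0.26 ± 0.10 SD; unadjusted p = 0.0097, adjusted p = 0.208). The 10 spots differed by an SD of only 0.014 to 0.020 within an array. The other probes did not read this way. The general-record probe printed above read 0.00, 0.04, -0.06 and 0.06, and the beta1D probe 0.09, 0.03, 0.35 and 0.36 (mean 0.21 ± 0.17 SD; unadjusted p = 0.0519). The 3 probes of Itgb1 thus had negative, near-zero and positive means on the same arrays, and the cause was not tested. With median centring the mean of the 10-spot probe was 0.18, or -0.04 relative to all genes.

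Itgb5, which pairs with alphav to bind vitronectin, read -0.25, -0.54, -0.17 and -0.17 (mean -0.28 ± 0.18 SD; unadjusted p = 0.0186, adjusted p = 0.253). Pools overlapped, with control pools at 14.77 to 15.47 and mutant pools at 14.52 to 14.93. With median centring its mean was 0.33 (adjusted p = 0.0219), or 0.10 relative to all genes, so its direction turned with the scaling. Its probe was bright (mean log2 intensity 14.9), where median centring left positive ratios. Itgb4, the partner of alpha6 in hemidesmosomes, read 0.04, -1.46, -0.15 and -0.15; its mean was -0.43, and -0.09 without array 2. Itgb6, an epithelial subunit, had 3 probes and none passed the filter.

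**Figure D2:**
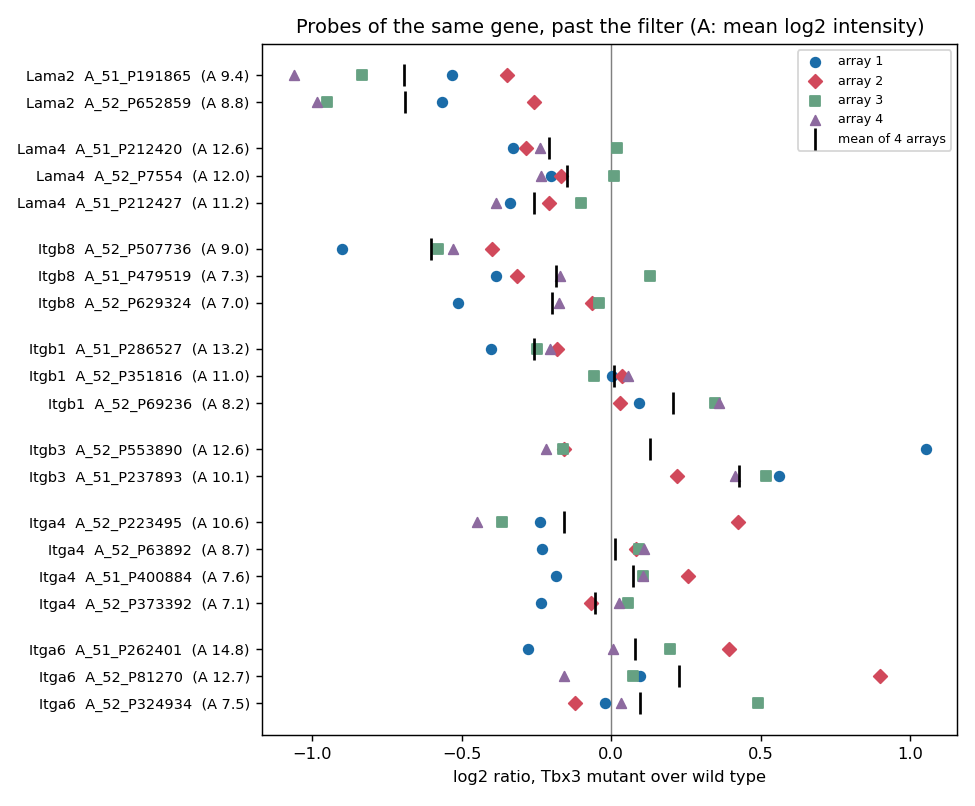
Log2 ratio of mutant over wild type (x axis) for each probe past the filter of 7 genes with several probes; rows are probes ordered by mean log2 intensity within a gene, symbols are arrays and black bars are means. The Lama2 probes both average -0.69 with loess scaling, while the Itgb1 probes average -0.26, 0.01 and 0.21.

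The 3 laminin-binding alpha subunits had means within their spread with loess scaling. Itga6, whose product pairs with beta1 or beta4, read -0.28, 0.40, 0.20 and 0.01 (mean 0.08 ± 0.29 SD; adjusted p = 0.798). Array 2 was its highest reading, and its second probe also read highest there, at 0.90 against -0.16 to 0.10 on the others. Its dimmest probe read lowest there instead, at -0.02, -0.12, 0.49 and 0.03. With median centring the mean of Itga6 was 0.68 (adjusted p = 0.0104), or 0.45 relative to all genes, so the call depends on the scaling. Itga7, the laminin receptor subunit of muscle, read 0.00, -0.81, 0.06 and 0.09, and its second probe -0.31, -0.74, -0.14 and -0.05 (mean -0.31 ± 0.31 SD; unadjusted p = 0.0505). Itga3, an epithelial subunit, lay between -0.11 and 0.08, and its 3 probes averaged between -0.02 and 0.05.

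Of the collagen-binding alpha subunits, Itga10 was lower on all 4 arrays, at -0.28, -0.10, -0.26 and -0.28 (mean -0.23 ± 0.09 SD; unadjusted p = 0.0132, adjusted p = 0.230). Its pools did not overlap (6.52 to 6.76 in controls, 6.24 to 6.48 in mutants). The probe was dim, above background in 4 of 4 control but 3 of 4 mutant pools, so the size of the ratio is poorly determined. With the authors' deposited ratio it was -1.07 (adjusted p = 0.272), and with median centring -0.39, which passed the threshold (adjusted p = 0.0093). Itga11 lay between -0.45 and 0.16. Itga1 read 0.18, -1.03, 0.29 and 0.12; its mean was -0.11 with array 2 and 0.19 (unadjusted p = 0.0326, adjusted p = 0.177) without it. Itga2, whose product also serves platelets, had 2 probes and neither passed the filter.

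Among the subunits that bind RGD ligands, Itga5, the fibronectin receptor subunit, read 0.17, -0.35, -0.14 and -0.13 (mean -0.11 ± 0.21 SD; adjusted p = 0.638). Itgav, which pairs with beta1, beta3, beta5, beta6 or beta8, read -0.26, -0.68, 0.26 and 0.21 (mean -0.12 ± 0.44 SD; adjusted p = 0.791). Itga8, the receptor subunit for nephronectin, read 0.09, -0.83, -0.15 and -0.35. For all 3, array 2 gave the lowest ratio. Without it the means were -0.04 for Itga5, 0.07 for Itgav and -0.13 for Itga8. With median centring Itga5 and Itgav averaged 0.15 and 0.24, or -0.08 and 0.01 relative to all genes.

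Itga4 encodes the alpha4 subunit, which binds Vcam1 and fibronectin and is known from the attachment of the epicardium. It read -0.24, 0.43, -0.37 and -0.45 (mean -0.16 ± 0.40 SD; adjusted p = 0.693). Without array 2 the mean was -0.35 (unadjusted p = 0.0041, adjusted p = 0.0797). Here array 2 differed in the other direction, and the mutant pool stood apart: mutant pool 2 was at 11.20, the others between 10.01 and 10.43. Its 3 other probes past the filter averaged -0.06, 0.01 and 0.07, so they do not share the lower reading of arrays 3 and 4. Nor was mutant pool 2 raised in these probes, at -0.11, -0.18 and -0.09 from the median of the other mutant pools. Itga9, a receptor subunit for tenascin, ran from 0.27 on array 1 to -0.91 on array 4 (mean -0.36 ± 0.49 SD).

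Several leukocyte integrins read low on array 2, where the leukocyte markers were also low. Itgal, Itgam and Itgax encode alpha partners of the beta2 subunit (Itgb2), and Itgae encodes a partner of beta7 (Itgb7). Itgal read 0.73, -1.23, -0.25 and 0.03. Itgb2 read 0.92, -0.75, 0.05 and 0.24, and Itgb7 read 0.85, -1.20, 0.30 and 0.28. Array 1 was high and array 2 low for these 3, and no mean exceeded its spread. Without array 2 the mean was 0.41 for Itgb2 and 0.48 for Itgb7 (unadjusted p = 0.0153, adjusted p = 0.125). The second Itgal probe was low on array 2 but not high on array 1, at -0.03, -0.92, -0.07 and -0.08. Itgam also read low only on array 2, at 0.11, -1.01, -0.14 and 0.01. Itgae was less low there (-0.38, against -0.10 to 0.17), while the brighter Itgax probe lay between -0.08 and 0.19. The dimmer Itgax probe was also low on array 2, at -0.06, -1.29, -0.09 and -0.02, with control pool 2 at 7.73 against 6.36 to 6.50 in the other controls. Itgb2l, a relative of Itgb2, had 1 probe, which did not pass the filter.

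The 8 leukocyte markers, which include Ptprc, Csf1r and Lyz2, had median ratios of 0.27, -1.39, -0.05 and -0.10, and all 8 were above background in every pool. Their summed log2 level was 13.31, 15.41, 13.67 and 13.58 in the control pools and 13.04 to 13.48 in the mutant pools. Control pool 2 was thus the highest of 8. On array 1 the sums were near equal (13.31 and 13.33), but the median level was 8.09 in the control pool and 8.63 in the mutant pool. The part of leukocyte RNA in the readings of these integrins was not tested.

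Itga2b and Itgb3 encode the fibrinogen receptor of platelets and megakaryocytes. Itga2b read 1.35, 0.71, -0.43 and -0.37 (mean 0.31 ± 0.87 SD; adjusted p = 0.703), and its level in mutant pool 1 was 11.27 against 9.66 to 10.45 in the other mutant pools. The brighter Itgb3 probe, at chr11:104779399-104779458, read 1.05, -0.16, -0.16 and -0.22. Array 1 gave the highest reading of both, and Itga2b was also above 0 on array 2. The platelet lineage list, 8 of 8 above background in every pool (Pf4, Ppbp and Gp9 among them), had medians of 1.90, 0.19, -0.37 and 0.16, and its summed log2 level was 16.88 in mutant pool 1 against 14.73 to 15.33 in the other 7 pools. Their part in the Itga2b and Itgb3 readings was not tested. Without array 1 the mean of Itga2b was -0.03. A dimmer Itgb3 probe, at chr11:104776217-104776287, differed from the brighter one: it read 0.56, 0.22, 0.52 and 0.41 (mean 0.43 ± 0.15 SD; unadjusted p = 0.0020, adjusted p over probes = 0.161), and of the 61 tested probes it was the only one higher at an unadjusted p under 0.05.

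**Figure D3:**
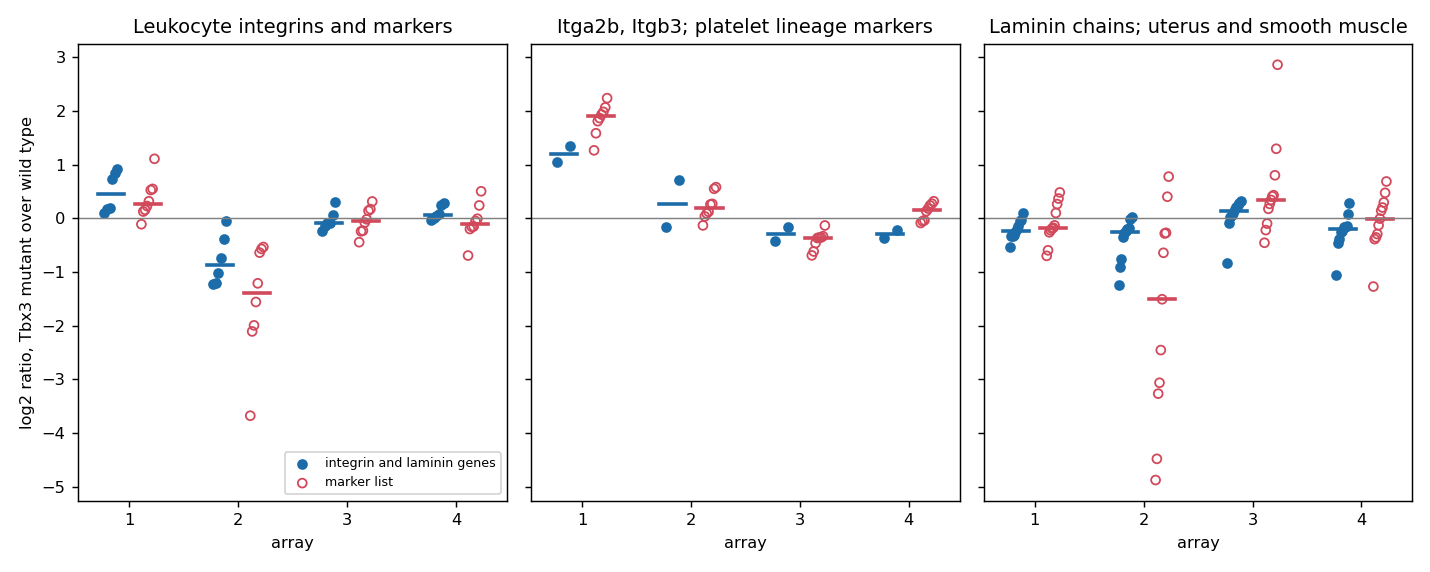
Log2 ratio of mutant over wild type (y axis) on each array (x axis) for integrin and laminin genes (filled blue) beside marker lists (open red), with lines at the medians. Leukocyte integrins and markers are both low on array 2 (marker median -1.39), Itga2b with Itgb3 and the platelet lineage list are high on array 1 (marker median 1.90), and 10 laminin chains stand beside the uterus and smooth muscle list (median -1.51 on array 2).

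The largest low readings of array 2 went mostly with a high control pool 2. In 6 genes the ratio on array 2 lay over 1 below the median of the other arrays (4.30% of all genes), among them Itgb4, Itgal, Itgb7, Itgam and Itga1. In 1, Itga2b, it lay over 1 above (0.707% of all genes). The level of control pool 2 was over 1 above the median of the other control pools in 7 of the 34 genes (3.27% of all genes), whereas mutant pool 2 was that far from the other mutant pools in 0 of 34 (1.13% of all genes). The excess of control pool 2 was 1.54 for Itgal, 1.46 for Itgb7, 1.42 for Lamb2, 1.40 for Itgam, 1.32 for Itgb4, 1.31 for Itgb2 and 1.04 for Itga8. It was 0.96 for Lamc1. The 7 thus held leukocyte subunits, a laminin chain and subunits that belong to neither. Other low readings of array 2 went with a low mutant pool 2. From the median of the other mutant pools it lay at -0.59 for Itgav and -0.33 for Itga5, with control pool 2 at 0.22 and 0.06. For the dimmer Itga1 probes mutant pool 2 lay at -0.86 to -0.65 and control pool 2 at 0.23 to 0.74. For the brightest Itga1 probe these were -0.21 and 1.00.

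Itgbl1, the integrin-like gene, showed a high control pool 2 most clearly. Its probe, at chr14:118371362-118371421, was above background in control pool 2 and in few others (2 of 4 control and 1 of 4 mutant pools), so it was not tested. Its level was 6.46, 11.67, 6.34 and 6.18 in control pools and 6.10, 6.59, 6.18 and 6.16 in mutant pools. The ratios were -0.36, -5.08, -0.16 and -0.03. The low mean thus rests on 1 pool of 8.

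Other lists were also high in that pool. Of the 12 genes in the list of uterus and smooth muscle markers, such as Esr1, Hoxa10 and Myh11, 9 were above background in all control pools and 10 in all mutant pools. The median ratios of the 11 tested were -0.18, -1.51, 0.34 and -0.01. Its median level was 12.47 in control pool 2 against 8.51 to 8.59 in the other controls, and its summed log2 level 17.87 against 17.35 to 17.37. Hoxa10 and Hoxa11 read -4.88 and -4.48 on array 2. The 8 cushion mesenchyme markers had medians of -0.23, -0.75, -0.33 and -0.26 and summed levels of 18.97 in control pool 2 against 16.83 to 16.86 in the other controls. Their median level was not raised there (13.62, against 13.37 to 13.67), so the sum rests on a few genes, of which Col1a1 and Col3a1 read -3.58 and -2.37 on array 2. The part of these transcripts in the integrin and laminin readings was not tested.

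**Figure D4:**
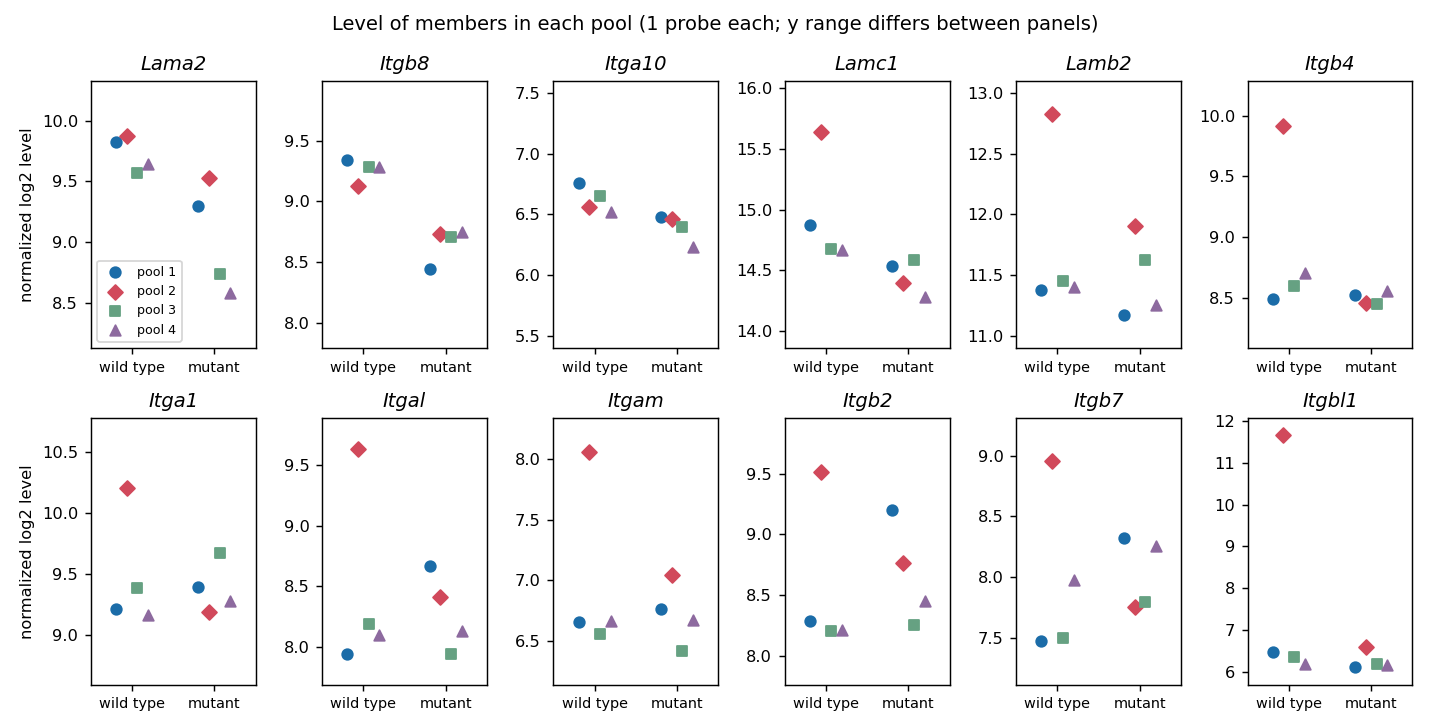
Normalized log2 level (y axis, a separate range in each panel) of 12 genes in the 4 wild-type and 4 mutant pools, 1 symbol per pool. Lama2, Itgb8, Itga10 and Lamc1 show no overlap between genotypes, and pool 2 of the wild type is the highest of 8 for Lamc1, Lamb2, Itgb4, Itga1, Itgal, Itgam, Itgb2, Itgb7 and Itgbl1.

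Lama2, Itgb8, Itga10 and Lamc1 were the only 4 of the 34 genes whose mutant pools all lay below all control pools, where 5.11% of all genes did; in 0 of the 34 did they all lie above (3.89% of all genes). By class, 17 of 23 tested integrin subunits had a negative mean (median -0.12), as did 9 of 11 laminin chains (median -0.13), where 49.7% of all genes did. Without array 2 these medians were -0.01 and -0.07. All 5 laminin alpha chains had a negative mean, and all 5 lay below the median of all genes with median centring too. For Lama3 the mean was -0.06, and -0.0016 without array 2. Of the non-leukocyte beta subunits 4 of 5 were negative, of which Itgb5 lay above the median of all genes with median centring. The leukocyte subunits divided into 3 negative and 3 positive.

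Some probes of a gene disagreed in sign. Of 17 genes with at least 2 probes past the filter, 9 had means of 1 sign and 8 did not. The same share was not counted over all genes, so it is not read as a trait of these. Some of the means lay near 0, such as -0.02, -0.02 and 0.05 for Itga3, where a sign carries little. Of the 61 probes tested one by one, none passed an adjusted p of 0.05 in limma (0% of all probes), and 9 lower and 1 higher had an unadjusted p under 0.05 (6.15% and 7.56% of all probes). Of these 61, 12 were lower on all 4 arrays (10.7% of all probes) and 4 higher (12.9%). On array 2 the 4 Itga1 probes all read low, between -1.03 and -0.51, as did 2 of the 3 Itga8 probes, at -0.83 and -0.68, and both overlapping Itgb4 probes, at -1.46 and -1.39.

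A list of basement membrane partners, such as nidogens and collagen IV chains, held no gene past the threshold. Of 20 listed, 17 were tested and 14 had a negative mean (median -0.06), where 49.7% of all genes did. At an unadjusted p under 0.05 in limma, 1 was lower and 1 higher (7.45% and 7.10% of all genes). Those with the lowest unadjusted p were Col4a4, a collagen IV chain, Bcam, a surface receptor for the laminin alpha5 chain, and Nid2, a nidogen. Col4a4 read 0.48, 0.30, 0.38 and 0.41 (mean 0.39 ± 0.07 SD; adjusted p = 0.134), higher on 4 of 4 arrays. Bcam read -0.71, -0.22, -0.50 and -0.39 (mean -0.45 ± 0.21 SD; adjusted p = 0.163), lower on 4 of 4. Nid2 read -0.39, 0.06, -0.16 and -0.37 (mean -0.22 ± 0.21 SD; adjusted p = 0.382), and without array 2 its mean was -0.31 (unadjusted p = 0.0093). The abundant chains Col4a1 and Col4a2 read -0.04 each.

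Other integrin ligands did not pass either, with 17 of 19 tested, 8 negative and a median of 0.06. At an unadjusted p under 0.05 in limma, 3 were lower and 1 higher (7.45% and 7.10% of all genes). On all 4 arrays 7 were lower and 0 higher (12.6% and 12.3% of all genes). Postn, the periostin of cushion mesenchyme, read -0.48, -1.82, -0.68 and -0.78 (mean -0.94; adjusted p = 0.201). Npnt, the nephronectin bound by alpha8, read -0.28, -0.13, -0.53 and -0.37 (mean -0.33; adjusted p = 0.206). Both were lower on every array, and Postn was lowest on array 2. Ccn1, a matricellular ligand of alphav integrins, read 1.43, -0.26, 0.78 and 0.87 (mean 0.71; adjusted p = 0.326). Fn1, the fibronectin gene, lay between -0.25 and 0.68.

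Of 27 adaptors that link integrins to actin and signalling, 26 were tested, none passed, and the median was 0.04. Pxn (paxillin) read -0.36, -0.28, -0.28 and -0.40 (adjusted p = 0.143), Tns3 (tensin 3) read -0.36, -0.40, -0.21 and -0.35 (adjusted p = 0.144), and Bcar1 (p130Cas) read 0.39, 0.29, 0.38 and 0.24 (adjusted p = 0.144). These had the same sign on all 4 arrays, array 2 included. Without array 2, 1 ligand, Postn at -0.64 (adjusted p = 0.0499), was lower and 1 adaptor, Lims2 at 1.53 (adjusted p = 0.0388), was higher at an adjusted p under 0.05, where 0.330% and 0.681% of all genes were.

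The T-box element AGGTGTGA, searched on both strands, was found in 0 of 28 promoter windows of 25 of these genes (300 bases each, from 250 before to 50 after the start, RefSeq, GRCm38.p6), and in 1.28% of 32851 windows of all genes. Its shorter core AGGTGT occurred in 5 of the 28 windows (17.9%), in Itga3, Itgb2l, Itgb6 and Lamb3, against 13.7% of all.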

How the data were processed

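RNA from 8 pools was measured on 4 two-colour arrays of 60-base probes. Per the submitters' processing notes, spots were read with Agilent Feature Extraction 9.5.1. The authors deposited spot intensity before background subtraction, background intensity, a processed log10 ratio of red over green, and flags. The authors' deposited log10 ratio was used as an alternative; the series table held the same values to within 5e-07.

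Intensities were corrected with normexp (offset 50) and normalized by loess within arrays, with controls at weight 0 and non-uniform spots left out (limma 3.58.1, R 4.3.3). Of 41174 probes, 28794 were well above background in 1 channel or both on at least 3 of 4 arrays. The brightest probe stood for a gene, and names were updated through a RefSeq table. A 2-sided limma test (lmFit, then eBayes) compared the log2 ratio with 0, and p-values were adjusted by Benjamini-Hochberg over all 19093 genes, with a threshold of 0.05; unadjusted p-values come from the same fit, and intervals are 95% intervals from it. Pool levels were made comparable with Aquantile, and summed levels are log2 of summed linear levels. The fitting script was tested on simulated data. The mutant and control pool of an array enter as 1 ratio, so the array is the replicate block of the main analysis; the labels call the pools biological replicates. The number of arrays limits the precision.

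The genes and lists were chosen with earlier results of these data known. Values on each array were given for genes with an unadjusted p under 0.05, genes whose array 2 ratio lay over 1 from the median of the others, and Itgb1, Lama4, Lama5, Lamb1, Lamc1, Itga4, Itga5, Itga6 and Itgav, and of each other pathway list for the 3 with the lowest unadjusted p. The values of 1 gene are not reported here, though counts and medians include it. Other genes named with values were added after their values were seen. Lists of myocardium, endocardium, epicardium, erythroid, neural crest and liver and foregut markers had median ratios of 0.52, 0.05, 0.19, 0.60, -0.24 and 0.22, with no gene past the threshold. No annotation of build mm7 was used here, so exons and untranslated regions are not stated.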

Additional observations from a re-analysis of the deposited data

Results flagged for a closer look

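In 6 of 34 genes examined, the gap between 1 array and the nearest of the others, divided by the range of the 4, was above Dixon's 95% critical value. Chance gives about 1 in 20 for ratios of equal spread. Array 2 had the widest ratios over all genes (SD 0.49 against 0.26 to 0.29), and the share flagged over all genes was not computed. The 6 are therefore not read as particular to these genes. The 34 hold the untested Itgbl1 in place of the gene not reported. The flagged array was array 2 in 5 of the 6 genes and array 1 in 1. On array 2, Itgb4 read -1.46 against -0.15 to 0.04 on the others, Itga7 -0.81 against -0.00060 to 0.09, and Itga1 -1.03 against 0.12 to 0.29. Itgbl1, below background in most pools, read -5.08 there against -0.36 to -0.03. Itga10 was the exception in direction, at -0.10 on array 2 against -0.28 to -0.26. On array 1, Itgb3 read 1.05 against -0.22 to -0.16. The causes were not tested.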

How the results depend on the processing

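Of 246 values for 19 named integrin and laminin genes under 13 alternatives, 219 kept their sign and side of the threshold and 21 reversed. The looser and stricter brightness filters, an intensity trend in eBayes and the fit of 8 levels left these ratios unchanged. No sign could reverse under those settings, so the 219 overstates how stable the signs were. With median centring 10 of the 19 genes reversed. In all, 8 values passed the threshold, 2 of them (Itgb5 and Lamb1) among the reversed. All genes past the threshold numbered 1 in the main analysis, 3 with the deposited ratio, 7771 with median centring (570 lower, 7201 higher), 0 with the mean of the probes of a gene, 402 with array weights and 191 in the fit of 8 levels with no replicate block; leaving out 1 array gave 0 to 193, the 193 without array 2. Integrin and laminin genes past it numbered 0 in the main analysis and when any array was left out, 5 with median centring (2 lower, 3 higher), 2 with array weights and 1 with no replicate block; probes numbered 10, 5 and 1 under these settings. Array weights called Itgb8 and Lama2 (adjusted p = 0.0414 each) at log2 ratios of -0.61 and -0.83, with array 2 at a weight of 0.38 against 0.93 to 1.89, and the fit with no replicate block called Itgb8 (adjusted p = 0.0251). The pools of an array share only a number and the slide position, so no further pairing was assumed.

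Values that reversed with median centring were Itga1 at 0.14, Itga4 at 0.16, Itga5 at 0.15, Itgav at 0.24, Itgb1 at 0.18, Itgb5 at 0.33, Lama4 at 0.19, Lama5 at 0.16, Lamb1 at 0.37 and Lamc1 at 0.075; this scaling moved the median of all genes to 0.23, and 7 of these 10 still lay below it. Itga1 reversed with the mean of its probes (0.037). With array weights Itga1 (0.091) and Itgav (0.060) reversed. Leaving out 1 array in turn gave -0.24 to 0.19 for Itga1, -0.026 to 0.20 for Itga6, -0.48 to 0.17 for Itgal, -0.25 to 0.068 for Itgav, -0.033 to 0.56 for Itga2b and -0.21 to 0.48 for Itgb7; the first 4 reversed without array 2, Itga2b without array 1, and Itgb7 without array 1, 3 or 4. Tbx3 missed the threshold with the deposited ratio (adjusted p = 0.0547) and with the mean of its probes (-0.74; adjusted p = 0.120). The cause was not tested. Itga10 and Lamc3, not above background in every pool, have poorly determined ratios.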
